A study of Mus musculus with 12 samples.

Results

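Genes of the lysosome were followed in hippocampal RNA of 5xFAD mice and of wild-type (WT) mice, all aged 7 months. The group holds 45 genes picked by name, from 24318 genes listed: 21 soluble hydrolases, 4 cofactors and carriers that assist them, 13 membrane proteins, 6 subunits of the V-ATPase and the transcription factor Tfeb. Cathepsins were not among them. All 45 were listed, and all 45 passed the filter of a mean of at least 0.5 FPKM (fragments per transcript length and library total, a level that can be compared between genes). Slc15a3 passed it only through the 5xFAD libraries, since its WT mean was 0.396 FPKM.

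The 5xFAD mice carry transgenes with mutations of familial Alzheimer's disease, human APP among them, expressed in neurons from regulatory sequence of Thy1, and WT mice carry none. Gene levels came from the libraries titled CG, 3 of 5xFAD and 3 of WT. Circular RNA was read from back-splice junctions, which came from the libraries titled AT, again 3 of 5xFAD and 3 of WT, for which the design text gives A-tailing and digestion with the exonuclease RNase R. The labels give hippocampus, age and genotype only. Whether each sample is an animal of its own is not stated, and the p-values then cover sample-to-sample spread that may be technical.

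Lysosomes are acidic compartments in which hydrolases break down sugars, lipids, proteins and nucleic acids. Soluble hydrolases reach them tagged with mannose 6-phosphate, cofactors present lipids to them, heavily glycosylated membrane proteins line the compartment, and the V-ATPase pumps in the protons that hydrolases need. Neurons, astrocytes and oligodendrocytes all have lysosomes, but microglia, the phagocytes of brain tissue, are especially rich in some of their proteins. Tfeb and its relatives switch on many lysosomal genes through a short palindrome, known as the CLEAR element, that is built on the core CACGTG.

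The library labelled 5xFAD replicate 3 went against its label. Thy1, whose regulatory sequence drives the transgenes, was at 1136 and 1172 FPKM in 5xFAD replicates 1 and 2 and at 305 FPKM in the library labelled 5xFAD replicate 3, against 296, 308 and 340 FPKM in WT. Of the 45 lysosomal genes, that library lay within the WT range in 33, above it in 7 and below it in 5. Of the 9 that passed in the 5 libraries, described below, it lay within that range in 6 and above it in 3. The share over all genes is not given, so nothing is read from these counts. Total FPKM ran from 393245 to 411964 in the 5xFAD libraries and from 385214 to 412157 in WT. The lowest values put the read depth at 0.979 to 1.15 times that of WT replicate 1 in the 5xFAD libraries, and at 0.790 to 1.00 times in WT, while the read number itself is unknown. WT replicate 1 held more choroid plexus RNA than the others, with 2867 summed FPKM of 5 marker genes against 44.3 to 66.7 in the other WT libraries, and 57.8, 75.0 and 496 in 5xFAD. Values below include every library. Log2 differences of single genes are those of the 5 libraries without the library labelled 5xFAD replicate 3 unless the 6 are named, and call counts and medians of the lysosomal classes are given for both. All 6 AT libraries are used for the junctions. The labels do not say whether AT and CG libraries of the same number share a sample. The genotype of the AT libraries was not checked.

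The promoter windows of these genes were searched for the CACGTG core, and the stretches that hold it are shown beside those of 4 genes that rose in 5xFAD. RefSeq windows of GRCm38.p6, from 250 bases before the gene start to 50 after it, were matched for 39 of the 45 genes. The core (CACGTG, the same on both strands) was found in 10 of 39, or 25.6%, against 8.09% of 27025 genes with a window. The longer TCACGTG, which contains the core, was found in the same number, 25.6% against 4.29% of all genes, and the full CLEAR palindrome, which adds GT before and AC after the core, in 1, Cln3 (2.56% against 0.37%). The element is known from lysosomal genes and these genes were picked by name, so nothing is read from these shares. The stretches below run 5′ to 3′ on the strand of the gene, with the core in capitals.
Lamp1 (chr8:13159080-13159160, plus strand): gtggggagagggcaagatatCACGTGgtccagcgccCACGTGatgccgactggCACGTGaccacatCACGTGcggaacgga
Mcoln1 (chr8:3500428-3500499, plus strand): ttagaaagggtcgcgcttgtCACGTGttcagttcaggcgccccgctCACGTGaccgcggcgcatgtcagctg
Cln3 (chr7:126583332-126583405, minus strand): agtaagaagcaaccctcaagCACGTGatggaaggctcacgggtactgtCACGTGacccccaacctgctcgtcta
Naglu (chr11:101070001-101070046, plus strand): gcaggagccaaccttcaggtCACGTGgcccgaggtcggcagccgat
Glb1 (chr9:114401010-114401055, plus strand): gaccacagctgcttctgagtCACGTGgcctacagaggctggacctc
Gaa (chr11:119267803-119267848, plus strand): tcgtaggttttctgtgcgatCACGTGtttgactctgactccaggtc
Atp6v1a (chr16:44139365-44139410, minus strand): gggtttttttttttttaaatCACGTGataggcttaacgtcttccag
Arsa, Sgsh and Atp6v0d1 held 1 copy each. Lamp1, which codes for an abundant glycoprotein of the lysosomal membrane, held 4 copies in the 81 bases before its start. Of the genes that did not pass in the 5 libraries, 10 of 31 with a window held the core, and those without it are not shown. The last 80 bases before the start of 4 genes that rose in 5xFAD hold no copy, and none was found in the rest of their windows.
Cd68 (chr11:69666171-69666250, minus strand): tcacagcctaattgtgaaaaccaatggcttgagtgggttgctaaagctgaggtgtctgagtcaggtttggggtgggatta
Mpeg1 (chr19:12460690-12460769, plus strand): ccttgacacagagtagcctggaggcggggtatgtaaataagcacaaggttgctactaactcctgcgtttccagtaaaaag
Hexa (chr9:59539460-59539539, plus strand): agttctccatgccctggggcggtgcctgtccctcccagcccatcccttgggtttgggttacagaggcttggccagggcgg
Grn (chr11:102430427-102430506, plus strand): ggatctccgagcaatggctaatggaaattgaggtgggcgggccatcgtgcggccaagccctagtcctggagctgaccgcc

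In the 5 libraries, 9 of the 45 lysosomal genes rose in 5xFAD and 0 fell by limma on log2(FPKM + 1) with Benjamini-Hochberg adjusted p under 0.05 over all genes tested. The background was 1.18% of 14527 genes called higher and 0.0138% called lower, or 1.2% in either direction. The risen genes were 5 membrane proteins (Mpeg1, Cd68, Slc15a3, Laptm5 and Cd84), 3 hydrolases (Gusb, Hexa and Man2b1) and 1 cofactor (Grn), with limma adjusted p from 0.000315 to 0.0424. No V-ATPase subunit passed in either direction, nor did Tfeb. Over all 6 libraries the log2 differences of these 9 lay between 0.69 (Man2b1) and 1.73 (Mpeg1), and limma called 0 of the 45 (background 0.0069% of 14500 genes in either direction), and 10 had an unadjusted p under 0.05, all of them higher (background 2.4%). The groups of 3 did not overlap for Hexa, Gusb, Gm2a, Slc15a3 and Lamp1, all higher in 5xFAD (background 2.92%), and for 0 lower (background 2.74%). In the 5 libraries 13 had an unadjusted p under 0.05, all of them higher (background 4.96%). There the 5xFAD and WT values did not overlap for 25 of the 45, with 22 higher in 5xFAD (background 10.6%) and 3 lower (background 7.5%). Without 5xFAD replicate 1 as well, which leaves 1 5xFAD library whose spread is assumed to be that of the others, 4 of the 45 were called. Those were Mpeg1, Cd68, Slc15a3 and Laptm5. The background in that fit was 0.235% of 14471 genes called higher. Leaving aside Slc15a3, whose WT mean is under the filter, 8 of 44 lysosomal genes and 4 of 12 membrane proteins were called in the 5 libraries.

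**Figure D1:**
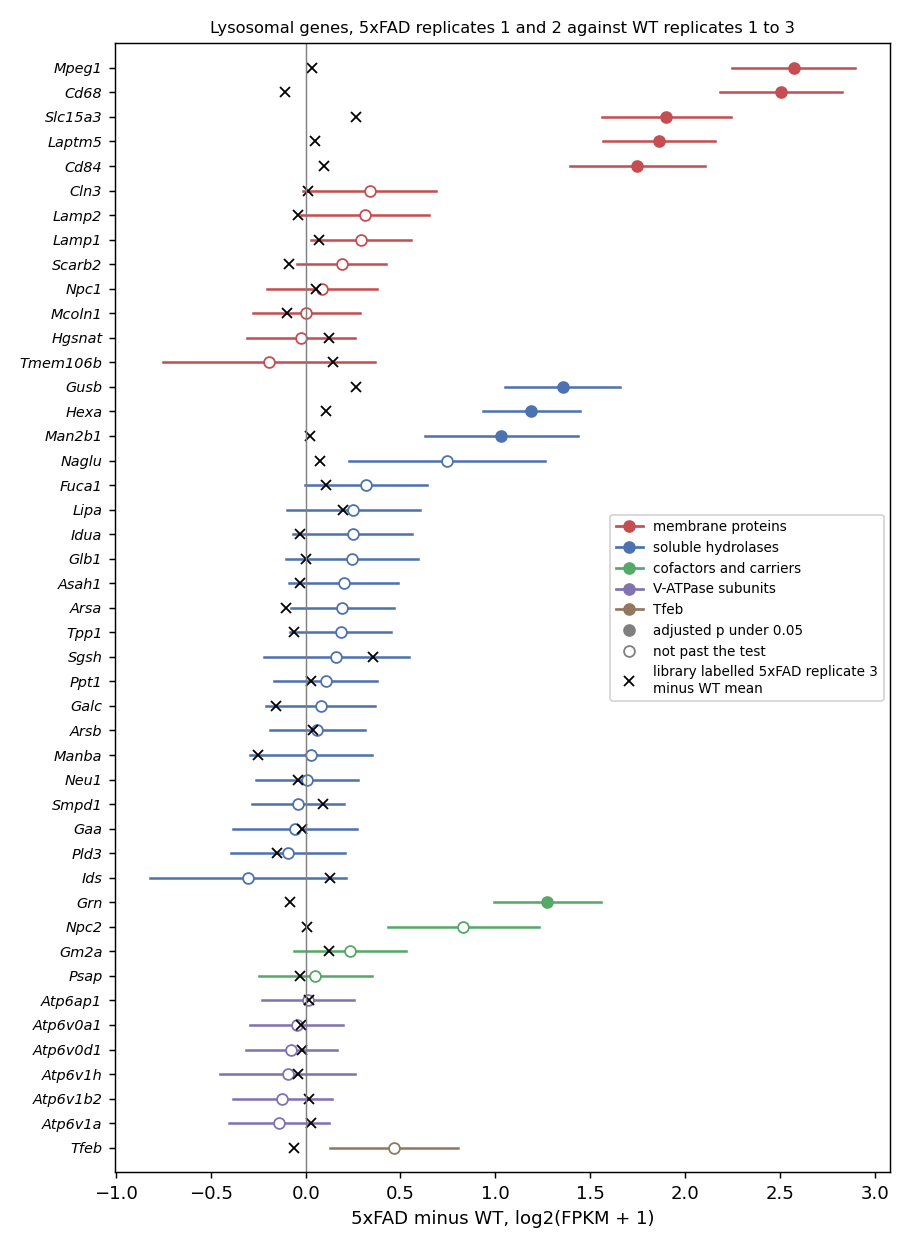
Log2 difference of each lysosomal gene, 5xFAD replicates 1 and 2 minus WT replicates 1 to 3 on the log2(FPKM + 1) scale (horizontal axis), with 95% confidence intervals from limma as lines, filled circles for genes past the test and crosses for the library labelled 5xFAD replicate 3 minus the WT mean. The 9 genes that passed lie between 1.03 and 2.57, the V-ATPase subunits lie between -0.14 and 0.01, and all crosses lie below the 9 filled circles.

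Membrane proteins held the largest rises. Mpeg1, a pore-forming protein of phagocyte vesicles also called perforin-2, was at 38.7 and 46.0 FPKM in 5xFAD replicates 1 and 2 and at 6.43 FPKM in the library labelled 5xFAD replicate 3, against 5.48, 6.88 and 6.49 FPKM in WT. Both 5xFAD replicates lay far above every WT library and the library labelled 5xFAD replicate 3 lay among them. The level was 6.73 times that of WT in the 2 libraries, a log2 difference of 2.57 (SE 0.14, limma adjusted p = 0.000315).

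Cd68, a macrophage member of the LAMP family of lysosomal glycoproteins, was at 41.6 and 34.7 FPKM in 5xFAD replicates 1 and 2 and at 5.36 FPKM in the library labelled 5xFAD replicate 3, against 5.72, 5.35 and 6.58 FPKM in WT. It averaged 38.2 ± 4.92 FPKM in 5xFAD (SD, n = 2) and 5.88 ± 0.630 FPKM in WT (SD, n = 3), a log2 difference of 2.51 (SE 0.14, limma adjusted p = 0.000316). The groups were as far apart as for Mpeg1.

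Slc15a3, a proton-coupled transporter that carries histidine and small peptides out of endolysosomes, was the least abundant of the 45 in WT. It stood at 4.18 and 4.25 FPKM in 5xFAD replicates 1 and 2 and at 0.675 FPKM in the library labelled 5xFAD replicate 3, against 0.339, 0.470 and 0.379 FPKM in WT. All 3 5xFAD libraries lay above WT. The ratio of the means in the 5 libraries was 10.6, the highest of the 45, while the log2(FPKM + 1) difference of 1.90 (SE 0.14, limma adjusted p = 0.00111) is held down by the added 1. In RefSeq annotation Slc15a3 overlaps Tmem132a, which was at 29.9, 31.1 and 35.3 FPKM in 5xFAD and 32.9, 32.3 and 31.6 FPKM in WT.

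Laptm5, a lysosomal membrane protein of blood-derived cells and microglia, was at 41.5 and 40.2 FPKM in 5xFAD replicates 1 and 2 and at 10.9 FPKM in the library labelled 5xFAD replicate 3, against 9.29, 10.8 and 11.6 FPKM in WT (log2 difference 1.86, SE 0.13, limma adjusted p = 0.000676). Cd84, a receptor of the SLAM family that acts mainly at the cell surface, was at 6.53, 6.41 and 1.37 FPKM in the same order of 5xFAD libraries, against 0.973, 1.48 and 1.24 FPKM in WT (log2 difference 1.75, SE 0.15, limma adjusted p = 0.00232). For both genes, 5xFAD replicates 1 and 2 stood alone at the high end.

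**Figure D2:**
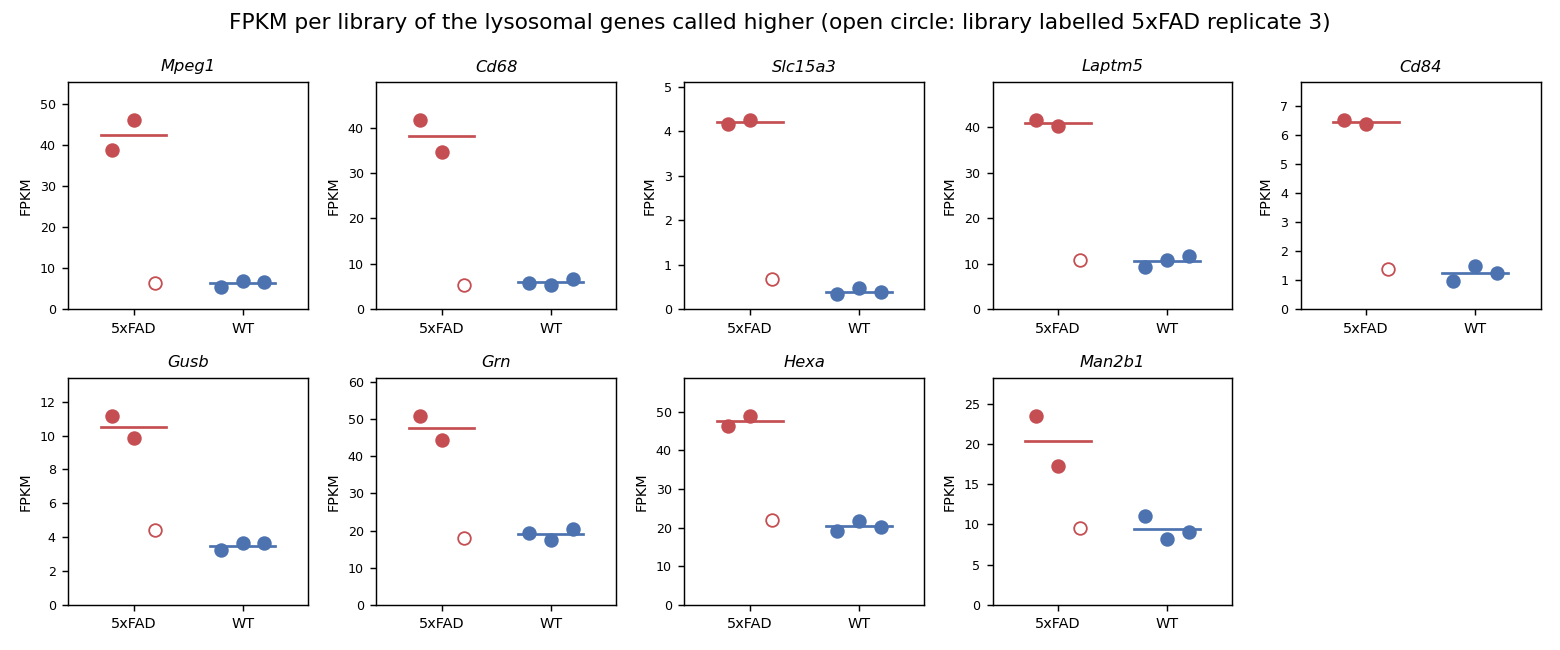
FPKM in each library (vertical axis from 0) of the 9 lysosomal genes that passed in the 5 libraries, with 5xFAD at left and WT at right, lines at the mean of 5xFAD replicates 1 and 2 and of WT, and an open circle for the library labelled 5xFAD replicate 3. In each panel 5xFAD replicates 1 and 2 lie above all WT libraries, and the open circle lies at or near them.

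The other 8 membrane proteins did not pass. Lamp1 was at 122, 138 and 111 FPKM in 5xFAD replicates 1, 2 and the library labelled replicate 3, against 104, 111 and 102 FPKM in WT, so that all 3 stood above WT. Its log2 difference in the 5 libraries was 0.29 (SE 0.11, 95% interval 0.03 to 0.55, limma adjusted p = 0.711). Lamp2, its close relative with a role in chaperone-mediated autophagy, differed by 0.31 (SE 0.14, interval -0.03 to 0.65). The intervals of Lamp1 and Lamp2 both end below that of Cd68, which begins at 2.18, although the difference between these genes was not tested.

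Cln3, mutated in a juvenile form of Batten disease in humans, differed by 0.34, and Scarb2, which carries glucocerebrosidase to lysosomes, by 0.19. Npc1, the membrane partner in cholesterol export, differed by 0.09. Mcoln1, the calcium-releasing channel of lysosomes, was at 19.4, 18.1 and 17.4 FPKM in 5xFAD and 20.3, 18.9 and 16.9 FPKM in WT. Its difference of 0.00 had a 95% interval of -0.28 to 0.29. Hgsnat, an acetyltransferase of heparan sulfate breakdown that spans the membrane, was at 19.0, 18.0 and 20.6 FPKM in 5xFAD and 17.5, 21.0 and 18.0 FPKM in WT. The groups of both genes overlapped throughout. Tmem106b, a membrane protein linked to frontotemporal dementia in humans, was at 31.4, 48.1 and 49.4 FPKM in 5xFAD and 33.7, 52.1 and 50.5 FPKM in WT. Replicate 1 was the low library in each genotype.

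Among the 21 soluble hydrolases, Gusb, Hexa and Man2b1 passed. Gusb, the beta-glucuronidase of glycosaminoglycan breakdown, was at 11.2 and 9.88 FPKM in 5xFAD replicates 1 and 2 and at 4.40 FPKM in the library labelled 5xFAD replicate 3, against 3.22, 3.65 and 3.63 FPKM in WT. All 3 5xFAD libraries lay above WT, with the library labelled 5xFAD replicate 3 only just above. The log2 difference in the 5 libraries was 1.36 (SE 0.13, limma adjusted p = 0.00331).

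Hexa, the alpha subunit of beta-hexosaminidase, which degrades GM2 ganglioside, was at 46.3 and 48.9 FPKM in 5xFAD replicates 1 and 2 and at 22.0 FPKM in the library labelled 5xFAD replicate 3, against 19.2, 21.7 and 20.1 FPKM in WT (log2 difference 1.19, SE 0.11, limma adjusted p = 0.00280). Its annotation overlaps Tmem202, which was at 0.768, 0.794 and 0.366 FPKM in 5xFAD and 0.422, 1.24 and 0.431 FPKM in WT. Man2b1, the lysosomal alpha-mannosidase, was at 23.5, 17.3 and 9.51 FPKM in the same order, against 11.0, 8.24 and 9.02 FPKM in WT (log2 difference 1.03, SE 0.17, limma adjusted p = 0.0424). Man2b1 was the gene nearest to the threshold, with a limma adjusted p of 0.0952 with no filter on low values, 0.0522 with quantile normalization, 0.372 and 0.101 without 5xFAD replicate 1 or 2, 0.123 without WT replicate 2 and 0.181 without WT replicate 3. Hexa lost its call with either 5xFAD replicate left out (limma adjusted p = 0.0516 without replicate 1 and 0.0547 without replicate 2).

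The other 18 hydrolases did not pass in the 5 libraries, and their log2 differences lay between -0.30 and 0.75. Naglu, another enzyme of heparan sulfate breakdown, stood highest at 5.07 and 4.06 FPKM in 5xFAD replicates 1 and 2 and 2.48 FPKM in the library labelled replicate 3, against 2.77, 1.49 and 2.85 FPKM in WT (log2 difference 0.75, SE 0.22, limma adjusted p = 0.363). Fuca1, a fucosidase, differed by 0.32, Lipa, the acid lipase of cholesteryl esters, by 0.25, and Glb1, the beta-galactosidase, by 0.24. Enzymes of sphingolipid breakdown gave 0.20 (Asah1, the acid ceramidase), 0.19 (Arsa, which removes sulfate from sulfatide), 0.08 (Galc, which degrades the myelin lipid galactosylceramide), 0.01 (Neu1, a sialidase) and -0.04 (Smpd1, the acid sphingomyelinase). The Batten disease enzymes Tpp1 and Ppt1 gave 0.18 and 0.11.

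The lowest hydrolases were Ids, Pld3 and Gaa. Ids, the sulfatase of heparan and dermatan sulfate, was at 83.9, 114 and 133 FPKM in 5xFAD and 92.6, 149 and 129 FPKM in WT, a log2 difference of -0.30 with a 95% interval of -0.82 to 0.21. Replicate 1 was the low library of Ids in each genotype, and over 6 libraries the log2 difference was -0.16. Pld3, a lysosomal nuclease, was at 179, 148 and 157 FPKM in 5xFAD and 184, 177 and 162 FPKM in WT. Gaa, the glucosidase of lysosomal glycogen, was at 88.5, 69.4 and 80.4 FPKM in 5xFAD and 82.0, 74.8 and 88.3 FPKM in WT. The groups overlapped for all 3.

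The cofactors and carriers split in the same way. Grn, the precursor of granulins that regulates lysosomal enzymes, was at 50.9 and 44.5 FPKM in 5xFAD replicates 1 and 2 and at 18.0 FPKM in the library labelled 5xFAD replicate 3, against 19.3, 17.6 and 20.5 FPKM in WT (log2 difference 1.27, SE 0.12, limma adjusted p = 0.00321). Npc2, which hands cholesterol to Npc1, was at 19.7, 19.4 and 10.6 FPKM in 5xFAD and 13.3, 8.77 and 10.0 FPKM in WT. Replicates 1 and 2 of 5xFAD lay above WT. The log2 difference of Npc2 was 0.83 (SE 0.17, limma adjusted p = 0.0939), and it passed without WT replicate 1 (limma adjusted p = 0.0137) and with array quality weights (0.0184).

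Gm2a, the activator that lifts GM2 out of membranes for hexosaminidase, was at 14.5, 17.4 and 14.7 FPKM in 5xFAD and 13.0, 14.3 and 12.9 FPKM in WT, so that all 3 stood above WT. Its log2 difference of 0.23 (SE 0.13) missed the threshold. Psap, the precursor of the saposins that activate sphingolipid hydrolases, was the most abundant of the 45, at 486, 464 and 448 FPKM in 5xFAD and 502, 439 and 437 FPKM in WT. Its groups overlapped, and the difference of 0.05 had a 95% interval of -0.25 to 0.35.

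V-ATPase subunits differed least. Of the cytosolic V1 sector, Atp6v1a, the subunit that binds ATP for catalysis, was at 146, 147 and 165 FPKM in 5xFAD and 149, 167 and 169 FPKM in WT. Atp6v1b2, the brain isoform of its partner subunit, was at 195, 178 and 205 FPKM in 5xFAD and 196, 211 and 201 FPKM in WT. Replicates 1 and 2 of 5xFAD were below all WT libraries for both genes, by a narrow margin. Their log2 differences were -0.14 (SE 0.11) and -0.12 (SE 0.11), neither past limma.

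Atp6v1h, a regulatory V1 subunit, was at 56.9, 44.2 and 52.2 FPKM in 5xFAD and 60.4, 47.7 and 53.6 FPKM in WT. Of the membrane V0 sector, Atp6v0a1, the neuronal form of its largest subunit, was at 139, 131 and 138 FPKM in 5xFAD and 137, 144 and 138 FPKM in WT. Atp6v0d1, the stalk subunit, was at 92.5, 88.4 and 94.0 FPKM in 5xFAD and 93.0, 99.1 and 94.3 FPKM in WT. Here too 5xFAD replicates 1 and 2 were narrowly below all WT libraries. Atp6v1a, Atp6v1b2 and Atp6v0d1 are thus the 3 lower genes without overlap among the 45 (background 7.5%), and none of them passed limma. The accessory subunit Atp6ap1 was at 114, 111 and 113 FPKM in 5xFAD and 110, 117 and 108 FPKM in WT. Over the 6 subunits the 95% intervals of the log2 difference in the 5 libraries ran from -0.45 at the lowest bound to 0.26 at the highest, so that a doubling of any of them lies outside its interval.

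**Figure D3:**
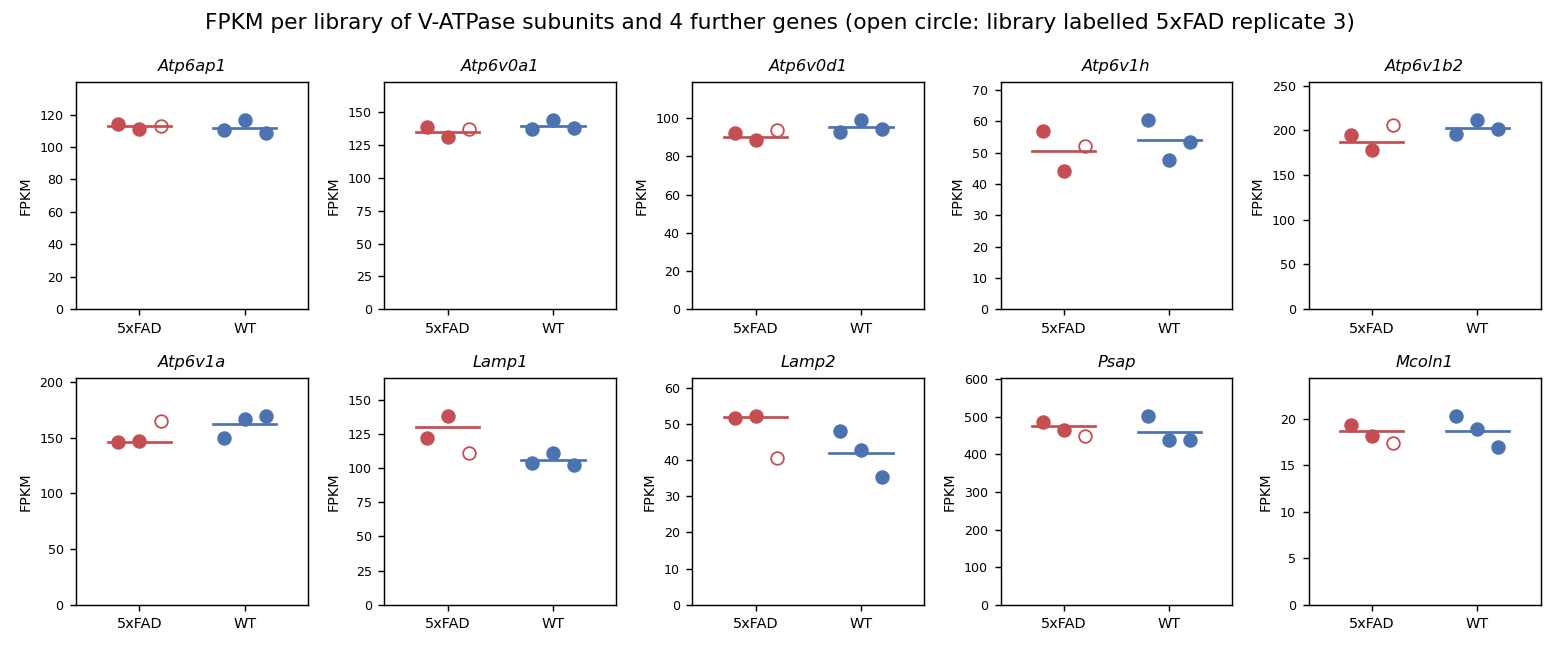
FPKM in each library (vertical axis from 0) of the 6 V-ATPase subunits and of Lamp1, Lamp2, Psap and Mcoln1, with 5xFAD at left and WT at right, lines at the mean of 5xFAD replicates 1 and 2 and of WT, and an open circle for the library labelled 5xFAD replicate 3. The groups lie close together in every panel, with Lamp1 and Lamp2 the clearest offsets. Lamp1 is at 122 and 138 FPKM against 102 to 111 FPKM in WT, and Lamp2 at 51.5 and 52.2 FPKM against 35.2 to 48.0 FPKM in WT.

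Tfeb was at 3.84 and 3.93 FPKM in 5xFAD replicates 1 and 2 and at 2.39 FPKM in the library labelled 5xFAD replicate 3, against 2.87, 2.58 and 2.18 FPKM in WT. Replicates 1 and 2 lay above WT, and the log2 difference was 0.47 (SE 0.14, limma adjusted p = 0.412), short of the threshold.

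Set side by side in the 5 libraries, the classes had median log2 differences of 0.31 for membrane proteins, 0.53 for the cofactors, 0.18 for hydrolases and -0.09 for V-ATPase subunits, beside -0.02 over all genes tested. In the same order, limma called 5 of 13, 1 of 4, 3 of 21 and 0 of 6 higher (background 1.18%). Without Slc15a3, whose WT mean is under the filter, the membrane proteins gave 4 of 12. Over 6 libraries the medians were 0.22, 0.38, 0.10 and -0.07, beside -0.01 over all genes. There 0 members of each class passed (background 0.0069% in either direction). In FPKM summed over each class, membrane proteins reached 457, 489 and 335 in 5xFAD and 318, 348 and 318 in WT. Hydrolases reached 663, 642 and 620 in 5xFAD and 607, 651 and 616 in WT. V-ATPase subunits reached 744, 699 and 767 in 5xFAD and 747, 786 and 765 in WT. The 9 risen genes together reached 264, 252 and 78.6 FPKM in 5xFAD and 74.5, 76.2 and 79.5 FPKM in WT. The other 36 together reached 2175, 2128 and 2138 FPKM in 5xFAD and 2148, 2190 and 2102 FPKM in WT, so that most lysosomal RNA of these lists came from genes that did not pass.

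The genes that rose were of low or middle abundance in WT, with means from 0.396 to 20.3 FPKM and a median of 6.28 FPKM, against a median of 21.8 FPKM over the 36 that did not pass. Across the 45 genes, Spearman's rho between WT level and log2 difference was -0.69, a description only, since every point shares the same libraries and the WT values enter both measures. Among the 39 genes with a promoter window, the CACGTG core stood in 0 of 8 that rose and in 10 of 31 that did not pass. It stood in 8.09% of all genes with a window, so 0 of 8 is close to that share and nothing is read from it.

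**Figure D4:**
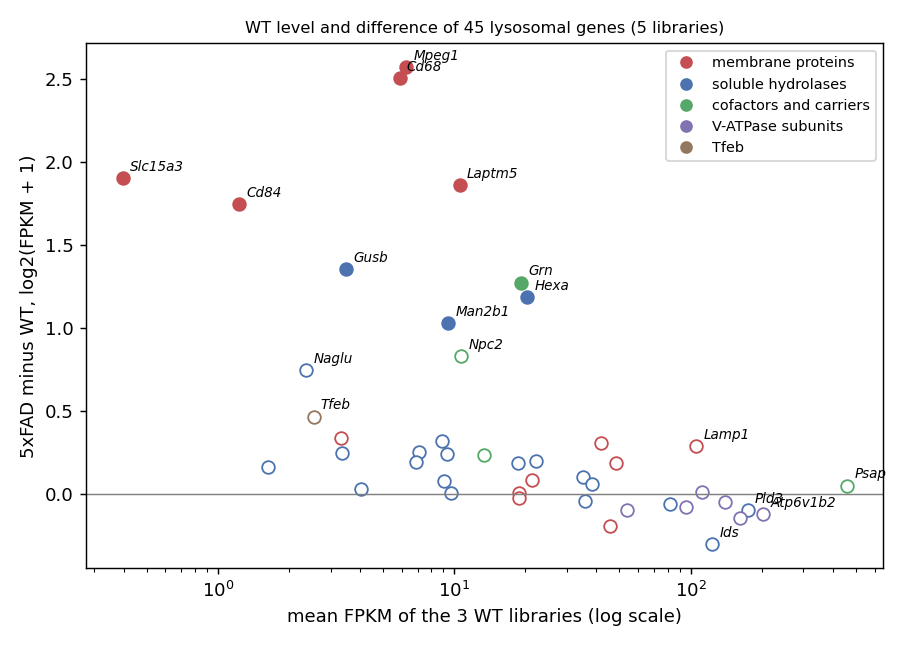
Mean FPKM of the 3 WT libraries (horizontal axis, log scale) and log2 difference of 5xFAD replicates 1 and 2 minus WT (vertical axis) of the 45 lysosomal genes, filled where limma passed. The 9 filled points all lie at or below 20.3 FPKM in WT, and the V-ATPase subunits, at 53.9 FPKM and above, lie near 0.

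Markers of microglia moved together with the risen genes. In bulk tissue, more cells of a type and more RNA per cell cannot be told apart. The 6 markers Cx3cr1, P2ry12, Tmem119, Csf1r, Aif1 and Itgam summed to 144, 151 and 68.7 FPKM in 5xFAD and to 58.9, 73.9 and 66.4 FPKM in WT. In the 5 libraries 4 of the 6 were called higher by limma (background 1.18%). Over 6 libraries 0 were called, and 5 had an unadjusted p under 0.05, all of them higher (background 2.4%). Csf1r, the growth factor receptor that microglia depend on, differed by 1.32 and Aif1 by 1.67 (limma adjusted p = 0.00247 and 0.0355). Cx3cr1 differed by 1.28 and Itgam by 1.08 (limma adjusted p = 0.0355 and 0.0175). P2ry12 and Tmem119 differed by 0.66 and 0.45 and did not pass. For all 6 markers 5xFAD replicates 1 and 2 lay above WT (background 10.6%). Markers of border macrophages and monocytes were near 0, with 5 genes summing to 1.35, 2.49 and 2.62 FPKM in 5xFAD and 1.52, 1.41 and 2.06 FPKM in WT. The 5 oligodendrocyte markers summed to 1851, 1852 and 1487 FPKM in 5xFAD and 1673, 1515 and 1507 FPKM in WT. None of them passed limma (0 called), and 3 had an unadjusted p under 0.05, all of them higher (background 4.96%). For all 5 markers 5xFAD replicates 1 and 2 lay above WT (background 10.6%), with a median log2 difference of 0.26. The 5 astrocyte markers summed to 808, 1044 and 961 FPKM in 5xFAD and 763, 1051 and 879 FPKM in WT, so that the sums overlapped. Of these 5 markers 0 were called by limma and 1 had an unadjusted p under 0.05 (background 5.91% in either direction). That was the water channel Aqp4, at 51.6, 54.8 and 40.0 FPKM in 5xFAD and 33.9, 38.3 and 33.4 FPKM in WT, with a log2 difference of 0.59 (limma adjusted p = 0.0719). Aldh1l1 differed by 0.19, while Slc1a3, Gja1 and Slc1a2 differed by 0.11, 0.02 and -0.01 with overlapping groups. The 6 neuronal markers summed to 1780, 1828 and 1926 FPKM in 5xFAD and 1875, 1992 and 1939 FPKM in WT. By limma 0 were called and 1, Gad1, had an unadjusted p under 0.05 (background 5.91% in either direction). Gad1 was lower in 5xFAD, with a log2 difference of -0.36. The groups of the 5 libraries did not overlap for 2 of the 6 markers, both lower (background 7.5%). The part of any of these in the lysosomal differences was not tested.

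Divided by the summed microglial markers of the same library, a step chosen after the values were seen, the risen genes differed among themselves. The ratio of Cd68 was 0.288 in 5xFAD replicate 1, 0.230 in 5xFAD replicate 2 and 0.0781 in the library labelled 5xFAD replicate 3, against 0.0972, 0.0724 and 0.0990 in WT. The mean ratio in the 5 libraries was 2.89 times that of WT for Cd68, 3.02 times for Mpeg1, 4.80 times for Slc15a3, 2.38 times for Cd84 and 1.74 times for Laptm5, and the groups of these 5 did not overlap. Gusb was 1.35 times the WT ratio, also without overlap. Over all genes tested, the groups of this ratio did not overlap in 1.1% with 5xFAD higher and in 92.2% with 5xFAD lower, since the marker sum is larger in 5xFAD replicates 1 and 2. These genes had already been picked as risen, so nothing is read from that count. The mean ratio of Lamp1 was 0.548 times that of WT, and that of Psap 0.459 times, with the groups lower in 5xFAD and no overlap, as for Lamp2. The ratio of Hexa was 0.320 in 5xFAD replicate 1, 0.324 in 5xFAD replicate 2 and 0.320 in the library labelled 5xFAD replicate 3, against 0.326, 0.294 and 0.302 in WT. The groups overlapped for Hexa, Grn and Man2b1, whose mean ratios were 1.05, 1.11 and 0.957 times those of WT. These ratios depend on the markers summed, which rose by unlike amounts, with log2 differences from 0.45 (Tmem119) to 1.67 (Aif1). With 2 libraries against 3 no permutation test of such a ratio can reach 0.05, and none was run.

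**Figure D5:**
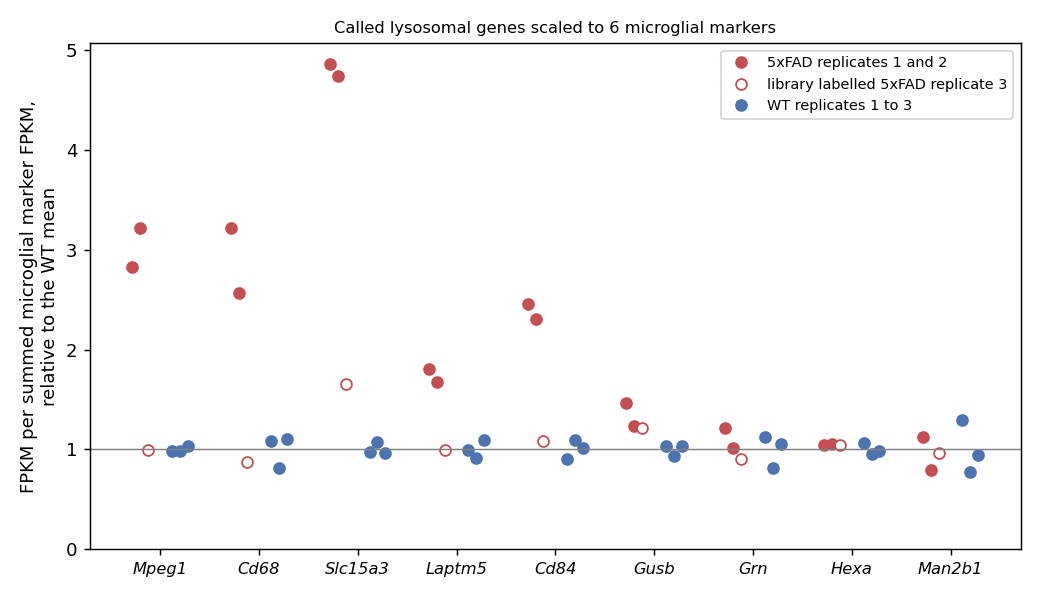
FPKM of the 9 risen lysosomal genes divided by the summed FPKM of 6 microglial markers in the same library, relative to the mean of the WT libraries (vertical axis from 0), with 5xFAD libraries left of WT libraries for each gene. The membrane proteins stand above 1 in 5xFAD replicates 1 and 2, whereas Hexa, Grn and Man2b1 mix with WT.

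Other lysosomal genes were taken from lists made by function. Among further hydrolases, Lgmn, an asparaginyl protease, was at 78.3, 68.4 and 45.4 FPKM in 5xFAD and 49.4, 49.0 and 38.2 FPKM in WT. Dnase2a, an acid nuclease, was at 2.73, 4.16 and 1.63 FPKM in 5xFAD and 1.78, 1.28 and 1.14 FPKM in WT. Pla2g15, a phospholipase, was at 10.8, 10.3 and 7.86 FPKM in 5xFAD and 8.01, 7.47 and 7.52 FPKM in WT. Replicates 1 and 2 of 5xFAD stood above WT for these 3 genes, with log2 differences of 0.68, 0.88 and 0.42 that limma did not call. Acp5 was listed below the filter.

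Of 21 further membrane proteins, 0 passed in either direction by limma, 1 had an unadjusted p under 0.05, and the median was 0.06. Over all genes 5.91% had such a p in either direction, a share that 1 of 21 does not exceed. It was Cd63, a tetraspanin of lysosomes and exosomes, at 84.5, 75.9 and 47.9 FPKM in 5xFAD and 62.1, 42.2 and 41.2 FPKM in WT (log2 difference 0.74). Of 12 further V-ATPase subunits tested, 0 passed by limma, 0 had an unadjusted p under 0.05, and the median was -0.04. Atp6v0d2, the form of the stalk subunit found in osteoclasts and macrophages, was below the filter, at 0.877, 0.386 and 0.0273 FPKM in 5xFAD, and was listed at 0 in all 3 WT libraries. Of 17 genes of enzyme sorting and lysosomal control tested, 0 passed by limma, 1 had an unadjusted p under 0.05, close to the share over all genes, and the median was 0.05. It was Nagpa, which uncovers the mannose 6-phosphate tag, at 4.36, 4.00 and 2.43 FPKM in 5xFAD and 2.40, 3.18 and 2.85 FPKM in WT. Over 6 libraries the medians of the membrane, V-ATPase and sorting lists were 0.04, -0.03 and 0.04, with 0 called in each by limma and 0, 0 and 1 genes at an unadjusted p under 0.05. The Tfeb relatives Tfe3 and Mitf differed by 0.17 and 0.11.

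Back-splice junctions gave a separate readout of 10 of the 45 genes. The AT table lists 22 junctions of these genes among 7025, in mm9 coordinates, as signal per junction. None of the 9 genes that rose has a listed junction. By limma on log2(signal + 1), 0 of the 22 junctions passed (background 0.0% of 7025), and 1 had an unadjusted p under 0.05 (background 5.68%). On whole reads, edgeR called 0 of the 22 (background 0.0%) and DESeq2 0 (background 0.0142%). In the authors' deposited table, none of the 22 (0) had an adjusted p under 0.05 (background 3.76%), and the lowest was 0.130. The median log2 difference was 0.04 over the 22, beside -0.06 over all junctions.

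The most abundant junction lies in Arsb, a sulfatase gene, at chr13:94632041-94650513. Its signal was 92.7, 44.7 and 44.0 in 5xFAD and 69.6, 49.7 and 64.8 in WT, and the groups overlapped. The next Arsb junction, at chr13:94559993-94564173, was at 24.3, 13.3 and 19.8 in 5xFAD and 22.8, 23.7 and 11.0 in WT. The junction of Glb1 at chr9:114359714-114368843 was at 17.3, 30.3 and 12.4 in 5xFAD and 25.1, 34.6 and 28.5 in WT. The groups overlapped there too. The main junction of Atp6v1h, at chr1:5079089-5088214, was at 32.0, 19.2 and 27.7 in 5xFAD and 28.1, 20.7 and 26.7 in WT. The junction of Galc at chr12:99465377-99472607 was at 13.9, 13.3 and 13.4 in 5xFAD and 10.5, 16.6 and 25.7 in WT.

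The smallest unadjusted p was that of Scarb2 at chr5:92883065-92883877, with a signal of 0, 2.26 and 0.239 in 5xFAD and 4.12, 2.05 and 2.57 in WT. Its log2 difference was -1.26 (SE 0.57, limma adjusted p = 0.859), and the groups overlapped. Manba, which codes for the beta-mannosidase, followed with a junction at chr3:135169872-135187591. Its signal was 18.2, 17.4 and 16.7 in 5xFAD and 5.99, 15.3 and 5.85 in WT, without overlap (limma adjusted p = 0.904), while Manba FPKM was at 4.50, 3.80 and 3.23 in 5xFAD and 4.36, 3.87 and 3.90 in WT. Another Arsb junction, at chr13:94577450-94650513, was at 12.1, 6.10 and 10.0 in 5xFAD and 4.49, 6.38 and 1.87 in WT. In all, the groups did not overlap for 1 junction higher in 5xFAD (background 4.43%) and 1 lower (background 6.65%), the second in Atp6v0a1. Reads recovered over the listed junctions came to 191408, 683540 and 659414 in 5xFAD and 438790, 695539 and 695528 in WT, so 5xFAD replicate 1 is the least precise.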

How the data were processed

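RNA was extracted with TRIzol, depleted of rRNA and sequenced paired-end, per the labels' protocols, and the build was mm9 with DESeq as tool, per the submitters' processing notes. FPKM per gene were deposited by the authors, while the sources used here name no quantifier, annotation or strand setting. FPKM are shares of a library. Junction signal was deposited by the authors with a log2 ratio, a p-value and an adjusted p-value per junction, per the file headers. In every library each signal value (100%) was, within 0.01, a multiple of what 1 read is worth, so whole reads were recovered, and edgeR called 0 and DESeq2 1 of 7025 junctions on them.

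Features were tested by limma on log2(value + 1), with the prior variance following the mean, over features with a mean of at least 0.5. The added 1 understates the change of low genes. The test was two-sided, with Benjamini-Hochberg adjustment over all features, for 14500 genes in 6 libraries, 14527 in 5 and 7025 junctions. Software was R 4.3.3, limma 3.58.1, edgeR 4.0.16 and DESeq2 1.42.0, and the fits were tested on simulated data. The members, classes, lists and tests were chosen with earlier results of these data known. Per-library values are given for called members, the 3 highest and 3 lowest of each class and Tfeb, for the 5 junctions with the highest signal and the 3 with the smallest p, and for the genes named from the other lysosomal lists, which are among the 4 of smallest p in each. Cell type markers are given as sums. Values of Lamp1, Aqp4, Naglu, Manba, Tfe3, Mitf, Atp6v0d2 and Acp5, and the microglial markers past the first 4, were chosen after they were seen. RefSeq promoter windows of GRCm38.p6 are not in the coordinates of the files. A gene of the list of further hydrolases, and that list's counts, are not reported here.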

Additional observations from a re-analysis of the deposited data

How the results depend on the processing

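Over 6 libraries 0 lysosomal genes and 1 of all genes were called; without the library labelled 5xFAD replicate 3 these were 9 and 174, and without any other library 0 and 1. In the 5 libraries, leaving out 1 more gave 4 to 10 lysosomal genes and 35 to 174 of all genes, with the lowest counts without 5xFAD replicate 1. All genes called were 52 without 5xFAD replicate 2, 106 without WT replicate 2 and 84 without WT replicate 3. The class medians of the 5 libraries ran, with 1 library left out, from 0.13 to 0.19 for hydrolases and from 0.27 to 0.33 for membrane proteins. The hydrolase median was 0.21 with 0.1 added in place of 1, 0.17 with quantile normalization, 0.22 with array quality weights and 0.13 with the replicate block. The membrane protein median was 0.35 with array quality weights and 0.27 with the replicate block. The V-ATPase median stayed below 0 under every alternative run.

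Replicate numbers do not pair the libraries by the labels. Same-numbered CG libraries deviated together with correlations of 0.46, 0.30 and 0.05, and the library labelled 5xFAD replicate 3 correlated best with WT replicate 2 (0.18). With the replicate block 9 lysosomal genes were called in the 5 libraries, and all genes called were 201 in place of 174. Mpeg1, Cd68 and Laptm5 kept their calls in all 13 settings of the 5 libraries, and Man2b1 in 7. Slc15a3 kept its calls in all 13 too, but its WT mean is under the filter. Junctions called were 1 by DESeq2 on whole reads and 0 under every other setting, and 0 of the 22 lysosomal ones under all settings run. Depth in reads is unknown for FPKM. The cause of these shifts was not tested.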

Other observations

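Tmem106b and Ids were lower in replicate 1 of each genotype than in the other libraries. Tmem106b was at 31.4 FPKM in 5xFAD replicate 1 and 33.7 FPKM in WT replicate 1, against 48.1 to 52.1 FPKM in the other 4 CG libraries. Ids was at 83.9 FPKM in 5xFAD replicate 1 and 92.6 FPKM in WT replicate 1, against 114 to 149 FPKM in the others. The pattern is not particular to these genes. Over 13323 genes, the deviations of the 2 replicate 1 libraries from their group means had a correlation of 0.46. Slc1a2, an astrocyte marker, was at 515 and 513 FPKM in replicate 1 of 5xFAD and WT, against 601 to 752 FPKM in the others. All 3 genes named here were picked out after their values were seen, and the labels name nothing that sets replicate 1 apart.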
